A study of Rattus norvegicus with 13 samples.

Results

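Moderate hotspots of the BN Prdm9 allele are places on the rat autosomes where the Brown Norway (BN) testis library had a medium DSB signal and where libraries of rats with the other Prdm9 allele, or with none, had little. They were taken from the deposited table of DSB hotspots as windows on chromosomes 1 to 20 with a BN strength of 50 to 199, a strength of at most 20 in wild-type SHR as well as in SHR without functional PRDM9 (KO/KO), and at most 60 in WKY. The rule found 10158 windows among 96640 in the table, of which 91120 are autosomal. All came from adult testes by DMC1 SSDS, which sequences the single-stranded DNA bound by the recombinase DMC1 at meiotic DSBs. The 5 libraries were 1 each of wild-type BN (strain BN/RIJHsd), wild-type WKY, wild-type SHR (SHR/OlaIpcv), KO/wt (Prdm9+/- on the SHR background) and KO/KO (Prdm9-/- on the same background). WKY and SHR share a Prdm9 allele that differs from that of BN. The KO/KO male was homozygous for a truncating deletion and was compared by the authors with a wild-type littermate. The deletion of the KO/wt male and the number of BN and WKY animals are not given in the sources used here. BN and SHR also differ throughout the genome, so that the allele and the strain cannot be told apart.

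PRDM9 is a meiotic histone methyltransferase whose zinc-finger array recognizes DNA sequence motifs. It trimethylates H3K4 and H3K36 at the nucleosomes beside its binding sites, and SPO11 then makes DSBs there. Because the zinc fingers evolve quickly, different alleles send recombination to different places. In rodents that lack PRDM9, DSBs form at promoters and other sites with H3K4me3 of another origin, called default sites. Meiotic recombination also varies along chromosomes at the scale of megabases, whatever the allele.

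Strength is a whole number per window and library that can fall below 0. How the authors scaled it is not given in the sources used here, so that levels of different libraries are set beside the median strength of the autosomal hotspots called in each. WKY had the highest such median, 210, and the others were 71 for BN, 72 for wild-type SHR, 70 for KO/wt and 64 for KO/KO. The numbers of reads are unknown. With 1 library per condition, no difference between conditions has a replicate check and no test was made. Intervals on percentages are Wilson 95% intervals and intervals on medians are 95% intervals from ranks. Both cover counting over windows only.

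BN strength fell between 50 and 199 in 12494 autosomal windows, and 81.3% of them met the limits on the other libraries. Of the 2336 left out, 830 exceeded only the WKY limit, 493 only the KO/KO limit and 64 only the wild-type SHR limit. The limits removed windows without a hotspot of the other library as well. In 1763 windows WKY strength was over 60, and 872 of these were called as WKY hotspots. Windows just inside and just outside the limits were counted with the remaining limits kept. In BN, 273 windows had a strength of 49 and 223 had 50, while 15 had 199 and 12 had 200. At the WKY limit, 37 windows had a strength of 60 and 24 had 61. At a strength of 20 and 21 there were 9 and 7 windows for wild-type SHR and 15 and 8 for KO/KO.

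Within the moderate BN hotspots, weak values prevailed. BN strength had a median of 82, with quartiles of 62 and 116, and 42.2% of the windows lay between 50 and 74 against 11.2% between 150 and 199. They made up 53.4% of the 18995 autosomal windows called in BN and held 45.4% of the BN strength summed over those. Strong BN hotspots, defined by a BN strength of 200 or more and the same limits elsewhere, were 1920 windows with 32.7% of that strength.

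The authors' calls marked 10150 of the 10158 windows as BN hotspots, beside a share of 20.8% of all autosomal windows. The call comes from the library that chose the windows and is only described. All 8 windows without a BN call overlapped a window that had one. KO/KO was the library called in 6 of these and KO/wt in 2. Calls in BN alone were given to 10142 windows. Another 8 windows were called in BN and also elsewhere.

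KO/wt shares the SHR background with wild-type SHR and KO/KO, and the rule limited the strengths of both. Low values in KO/wt could follow from those limits and are not an independent check. The KO/wt strength is the only strength that the rule did not use directly, and it was low as well. Its median over the moderate BN hotspots was 3 (interval 3 to 3), with quartiles of 0 and 6 and with 90% of values from -5 to 12. This is 4.29% of the median strength of KO/wt hotspots. The KO/wt library had a called hotspot in 3 of the 10158 windows (0.0295%, 0.0100 to 0.0868%), against 21.6% of all autosomal windows. The autosomal windows include hotspots of wild-type SHR and KO/KO, most of which the limits removed. Wild-type SHR, KO/KO and WKY were limited by the rule, and their values describe what lies under the limits. Median strength was 1 in wild-type SHR, with 95% of values at or below 11, and 2 in KO/KO, with 95% at or below 11. WKY had a higher background. Its median of 21 was 10% of the median of WKY hotspots, against 1.39% for wild-type SHR and 3.13% for KO/KO, and 95% of WKY values were at or below 49. Calls were found in 2 windows in wild-type SHR (21.8% of all autosomal windows), in 3 in WKY (38.3%) and in 10 in KO/KO (38.8%).

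**Figure D1:**
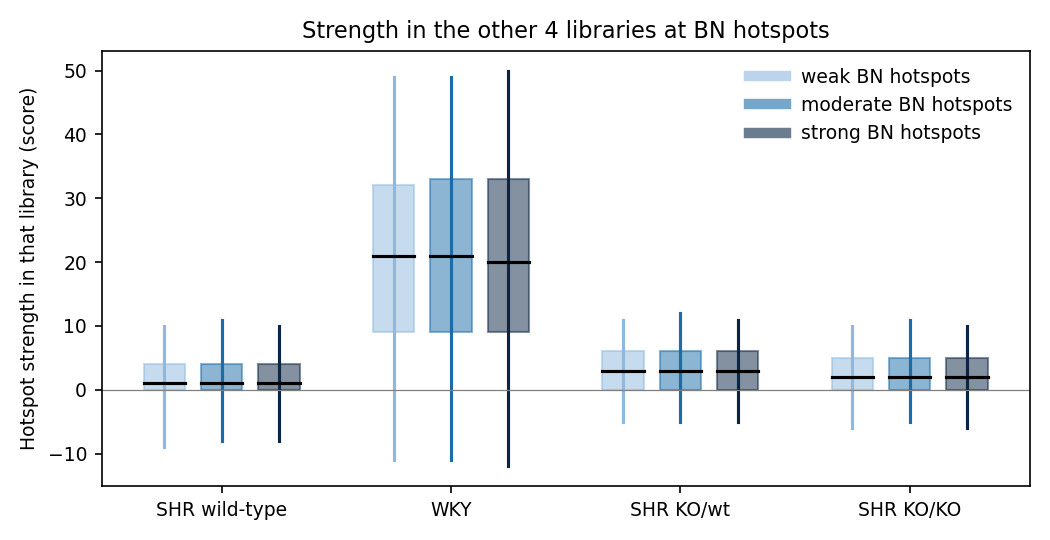
Strength (score, vertical axis) in the 4 libraries other than BN at weak, moderate and strong BN hotspots. Boxes span the quartiles, black lines are medians and vertical lines run from the 5th to the 95th percentile of windows. The boxes of the 3 classes nearly coincide in each library, and WKY lies highest, with medians of 20 to 21. All 3 classes have the same limits on wild-type SHR, WKY and KO/KO.

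The background hardly varied with BN strength. From windows with a BN strength of 50 to 74 up to those of 150 to 199, the median stayed at 3 for KO/wt and at 1 for wild-type SHR. It lay between 2 and 3 for KO/KO and between 21 and 22 for WKY. The 95th percentile of KO/wt was 12 in each of the 4 classes. Over the moderate BN hotspots the Spearman correlation of BN strength with that of any other library lay between -0.00867 and 0.00327. The same held beyond the range. The median KO/wt strength was 3 at the strong BN hotspots and at 4446 weak BN hotspots, which were called in BN with a strength below 50 under the same limits. The limits capped wild-type SHR, WKY and KO/KO at every BN strength, and the rule cut BN strength to a range. How far this flattened the medians and the correlations was not tested.

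The 4 backgrounds were only weakly related to each other. Across the 10158 windows, the Spearman correlations between pairs of these libraries ran from 0.0612 for wild-type SHR with KO/KO to 0.169 for WKY with KO/wt. In the 8772 windows that overlap no other window they ran from 0.0711 to 0.127. These are descriptions over windows that share their sequence and mappability between libraries, and the limits of the rule narrow the range.

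KO/wt exceeded wild-type SHR at 56.7% of the moderate BN hotspots (55.7 to 57.6%) and was lower at 36.9%, with a median difference of 2. Over all autosomal windows it was higher at 59.9% and lower at 36.3%, with a median difference of 3, so that the share at moderate BN hotspots was near that of the whole table. Values of exactly 0 were also unequal, at 25.4% of the moderate BN hotspots in wild-type SHR and 7.02% in KO/wt, and their part in the share was not tested. Strong BN hotspots gave 56.4% (54.2 to 58.6%) and weak ones 57.0% (55.5 to 58.4%). The share was thus alike over the whole range of BN strength. For comparison, 16037 autosomal windows with KO/KO strengths of 50 to 199, at most 20 in BN and wild-type SHR and at most 60 in WKY were taken as moderate default sites. There KO/wt was higher than wild-type SHR in 79.3% of windows (78.6 to 79.9%), with medians of 9 and 2, and 3.29% were called in KO/wt. The excess of KO/wt over wild-type SHR was thus smaller at the moderate BN hotspots. That compares 2 libraries without replicates whose scores may differ in scale. Both sets limit wild-type SHR and leave KO/wt without a limit, and how far this raised the shares was not tested. At the moderate SHR windows, chosen for a high wild-type SHR strength, KO/wt was higher at 40.9% and lower at 58.2%, with a median difference of -8.

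KO/wt strength was above 20 in 41 moderate BN hotspots (0.404%, 0.298 to 0.547%), in 7 weak BN hotspots (0.157%, 0.0763 to 0.325%) and in 0 of 1920 strong ones, which allows up to 0.200%. These shares compare with 31.8% of all autosomal windows, which include wild-type SHR hotspots that the limits removed, and 10.1% of moderate default sites. The highest value, 48, was at chr6:150931022-150934022 in the authors' rn5 coordinates. There BN had a strength of 59, WKY 49, wild-type SHR 17 and KO/KO -1, and hotspots were called in BN, wild-type SHR, WKY and KO/wt. It lay 1988 kb from the nearest other moderate BN hotspot. Next came chr9:20767468-20770468, which had a KO/wt strength of 38 and a BN strength of 178 and was called in BN alone. Windows of this kind lay at varied distances from hotspots of KO/wt itself. The one on chromosome 9 was 264 kb from the nearest, and chr2:134609475-134612475, with 36 in KO/wt, was 405 kb away. Others were close, such as chr11:2661990-2664990, with 35 in KO/wt and 81 in BN, whose centre was 1.20 kb from that of a KO/wt hotspot. Of all moderate BN hotspots not called in KO/wt, 15.2% lay within 10 kb of a KO/wt hotspot. Whether closeness goes with a high KO/wt strength was not tested. Among the 3 windows called in KO/wt, the strongest in BN was chr6:64608938-64611938, where BN had 94, KO/wt 20, wild-type SHR 16, WKY 13 and KO/KO 3. It was not called in BN and its nearest moderate BN hotspot was 0.780 kb away.

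Values well below 0 were mostly found close to hotspots of the library concerned. Strengths of -20 or less occurred at 73 moderate BN hotspots in KO/wt and 139 in KO/KO, and at 314 in WKY and 112 in wild-type SHR. Their median distance to a hotspot of that library, between window centres, was 1.84 kb in KO/wt, against 39.5 kb for the remaining windows. For WKY the distances were 2.17 and 23.7 kb, for KO/KO 2.08 and 26.0 kb, and for wild-type SHR 1.91 and 38.9 kb. Most of these low windows, such as 71 of 73 in KO/wt and 132 of 139 in KO/KO, overlapped another window.

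Most low values lay within 3 kb. In KO/wt the median strength was -6 at 286 windows within 3 kb of a KO/wt hotspot and 3 at 1260 windows from 3 to 10 kb, and it stayed at 3 beyond that, also past 100 kb. In WKY the medians were -4 within 3 kb, 22 from 3 to 100 kb and 24 (22 to 26) past 100 kb. Strength was also below its usual level within 3 kb in wild-type SHR (median -7, against 1 elsewhere) and KO/KO (median -4, against 2 to 3). Outside the 3 kb in which windows can overlap, the median background hardly varied with the distance. The limits of the rule capped the values of WKY, wild-type SHR and KO/KO at any distance. The lowest KO/wt value, -271, was at chr1:138513372-138516372, where BN strength was 53. The window lay 1.79 kb from a hotspot with a strength of 396 in KO/wt, and WKY had -322 there, wild-type SHR -179 and KO/KO 5. What produces negative strengths was not tested.

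**Figure D2:**
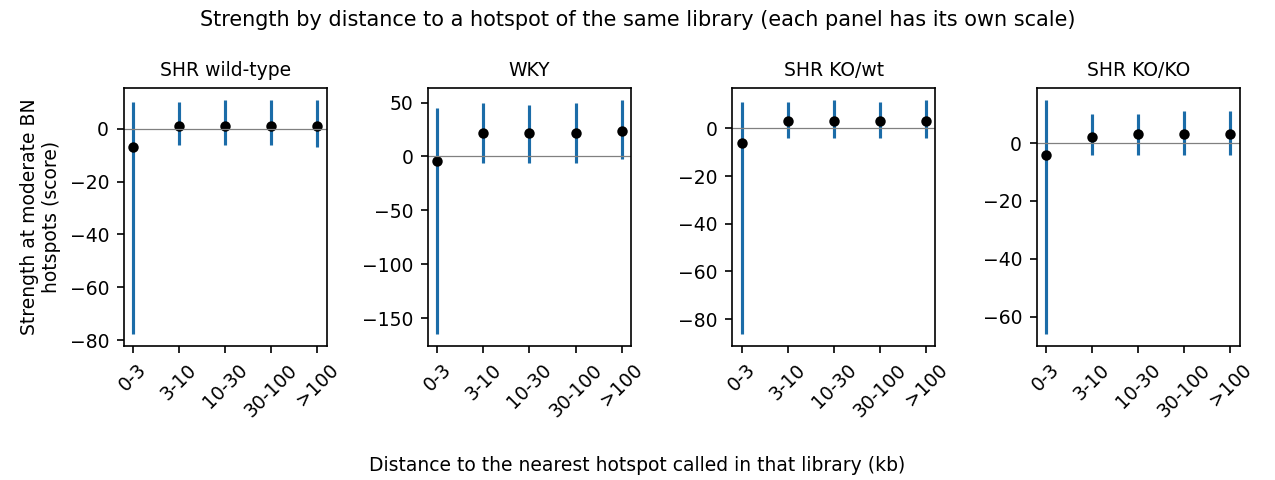
Strength (score, vertical axis, scaled per panel) at moderate BN hotspots in 4 other libraries, by distance in kb from the nearest hotspot called in the same library. Dots are medians and lines run from the 5th to the 95th percentile. Most of the low values lie within 3 kb, where the KO/wt median is -6, and from 3 kb outward the medians are nearly flat.

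Among moderate BN hotspots away from KO/wt hotspots, the KO/wt signal was no higher near default sites than far from them. Among windows over 30 kb from a KO/wt hotspot, the median KO/wt strength was 2 (2 to 3) at 307 windows within 3 kb of a KO/KO hotspot. It was 3 from 3 to 100 kb and 4 (3 to 4) at 980 windows past 100 kb. Wild-type SHR had a median of 1 in each of these classes.

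Of the moderate BN hotspots, 1386 (13.6%, 12.99 to 14.3%) overlapped another window of the table, compared with 17.4% of all autosomal windows. The share was 14.5% (13.03 to 16.2%) for strong BN hotspots and 14.8% (13.8 to 15.9%) for weak ones. Among the 1386, the overlapped window was called in KO/KO for 589 and in WKY for 558. It was called in wild-type SHR for 309, in BN for 246 and in KO/wt for 278. A window can be called in more than 1 library, so these add up to more than 1386. Another moderate BN hotspot was overlapped by 124 of them. BN strength had a median of 82 in overlapping windows and in those that overlapped none. Background strengths were lower where windows overlapped, at a median of 2 (1 to 2) in KO/wt and 16 (14 to 18) in WKY, against 3 and 22.

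Moderate BN hotspots occurred at 3.70 per Mb, or 1 per 270.3 kb of the autosomes as far as the last window of each. The median distance to the nearest other moderate BN hotspot was 73.5 kb (71.6 to 75.7), with quartiles of 29.9 and 154 kb, which is 27.2% of the mean spacing. Within 10 kb of another lay 863 windows (8.496%). The median spacing was close to that of a set of similar size under the other allele, while the extremes differed. The 10908 autosomal windows with wild-type SHR strengths of 50 to 199, and at most 20 in BN and KO/KO, had a median of 73.0 kb (70.9 to 74.9), or 29.0% of their mean spacing of 252 kb. Of these, 11.1% lay within 10 kb of another, and the 5th percentile of the distance was 3.15 kb against 6.59 kb for moderate BN hotspots. Only 92.9% of the moderate SHR windows were called in wild-type SHR, and 15.4% overlapped another window. Whether this shortened the lowest distances was not tested. Moderate default sites were closer to each other, at 33.6 kb (32.7 to 34.4), which is 19.6% of their mean spacing. By this measure the default sites were the more clustered. Strong BN hotspots had a median of 299 kb (280 to 310), or 20.9% of their mean spacing.

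**Figure D3:**
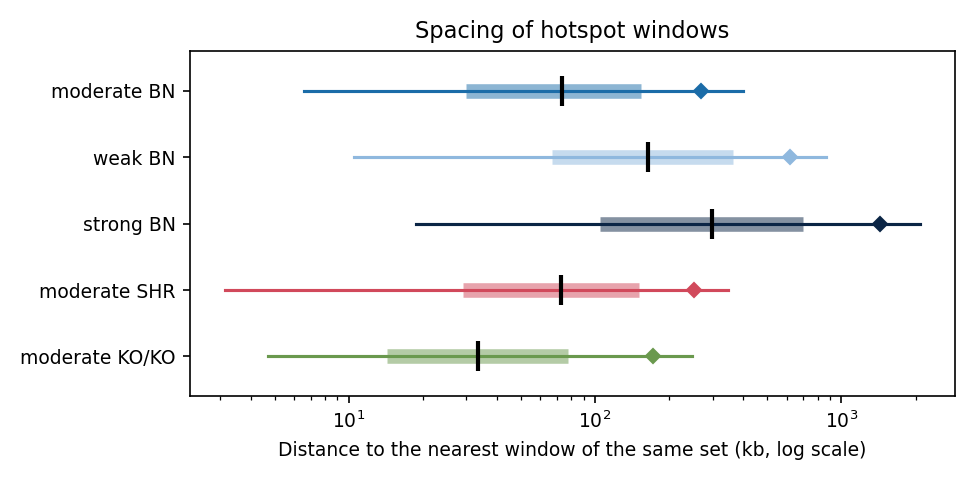
Distance from each window to the nearest window of the same set (kb, log scale). Thin lines run from the 5th to the 95th percentile, thick bars span the quartiles, black marks are medians and diamonds are the mean spacing. The medians of moderate BN and moderate SHR windows, 73.5 and 73.0 kb, nearly coincide.

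The closest pair of moderate BN hotspots that do not overlap were chr6:40204025-40207025 and chr6:40207063-40210063. BN strengths of the pair were 89 and 115. KO/wt strengths were 10 and -10, and both were called in BN alone. The shortest run of 5 consecutive moderate BN hotspots took 18.1 kb on chromosome 2, from 134309891 to 134327949, with no other window between them. From first to last their BN strengths were 58, 64, 86, 59 and 88, and their KO/wt strengths were 7, 2, 31, 11 and 4. Wild-type SHR stayed between -3 and 19 in the run, and the last 2 windows overlapped each other. At the other extreme, chr13:2934057-2937057, with 84 in BN and 9 in KO/wt, was 20556 kb from the nearest moderate BN hotspot. The table holds few windows of any kind there. The first 10 Mb of chromosome 13 had 39 and the next 10 Mb had 9, against a median of 352 per 10 Mb. Neighbours were hardly more alike in strength than distant pairs. The Spearman correlation of BN strength between consecutive moderate BN hotspots was 0.0281 over 10138 pairs and 0.0805 over the 395 pairs 3 to 10 kb apart.

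The rule fixed the BN strength of the members only to a range. Of the 15 windows tied at the highest strength, 199, the first 3 in genome order are given as examples. At chr1:123454505-123457505 WKY had a strength of 12, wild-type SHR -2, KO/wt 2 and KO/KO -5. At chr1:138218086-138221086 they were 54, 3, 7 and 19, and at chr2:114792170-114795170 they were 28, 5, 6 and 1, in the same order of libraries. Among the windows at the lower bound, the first 3 in genome order began at 6858469, 16025306 and 44913330 on chromosome 1. Their KO/wt strengths were 1, 15 and 10, and their WKY strengths were -2, 51 and 35. The 6 windows were called in BN alone, and their KO/wt values overlapped between the 2 bounds.

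Hotspots of the other libraries lay at distances that were similar for moderate BN hotspots and for default sites. The median distance to the nearest wild-type SHR hotspot was 38.5 kb (37.4 to 39.6) from moderate BN hotspots and 39.2 kb (38.2 to 40.0) from moderate default sites. To the nearest WKY hotspot it was 22.9 kb (22.2 to 23.6) and 23.0 kb (22.6 to 23.5). To the nearest KO/KO hotspot, moderate BN hotspots had a median of 25.5 kb (24.6 to 26.3) and moderate SHR hotspots one of 27.7 kb (26.7 to 28.7). Strong BN hotspots were closer to the hotspots of each other library, at 33.1 kb (30.9 to 34.9) from wild-type SHR and 22.4 kb (20.9 to 24.1) from KO/KO, and weak ones were farther, at 41.6 kb (39.9 to 43.0) and 26.3 kb (24.95 to 27.7). The median distance to hotspots of other libraries thus fell from the weak to the strong class. For wild-type SHR and KO/wt the intervals of the 3 classes did not overlap. For WKY and KO/KO those of the weak and the moderate class did. The 3 classes have the same limits on the other libraries.

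Among chromosomes, the number per Mb ran from 2.80 on chromosome 13 (332 windows) to 4.33 on chromosome 8 (573 windows), a ratio of 1.55 (95% interval from the counts of these chromosomes, which were chosen as the extremes, 1.35 to 1.78). Part of the low values came from stretches in which the table holds few windows of any kind. On chromosome 4, only 3 windows lie between a moderate BN hotspot ending at 67963095 and the next one starting at 133249899, a gap of 65.3 Mb. Why these stretches are nearly empty was not tested. Counted per Mb that holds at least 1 window of the table, chromosome 4 rose from 2.94 to 3.99 per Mb and was no longer low. The lowest was then chromosome 20, with 2.96, and the highest still chromosome 8, with 4.41.

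Default sites were distributed otherwise over the chromosomes. Per Mb with windows, moderate default sites were most dense on chromosome 20, at 9.66, where moderate BN hotspots were least dense, and on chromosome 12 they reached 9.02 against 3.79 for moderate BN hotspots. Across the 20 autosomes, the Spearman correlation of the density of moderate BN hotspots was 0.555 with that of moderate SHR hotspots, 0.418 with that of strong BN hotspots and 0.0436 with that of moderate default sites. Per Mb of the whole length, the correlations were 0.632, 0.589 and 0.211 in the same order, so that they depended on how the empty stretches were counted. The sets share the assembly and its empty stretches. The share of strong ones among strong and moderate BN hotspots together was highest on chromosome 1 (19.3%, 17.3 to 21.5%) and lowest on chromosome 20 (12.2%, 8.25 to 17.6%). Backgrounds at the moderate BN hotspots differed little among chromosomes. Median KO/wt strength was 2 to 4 and median wild-type SHR strength 0 to 1 on every autosome.

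**Figure D4:**
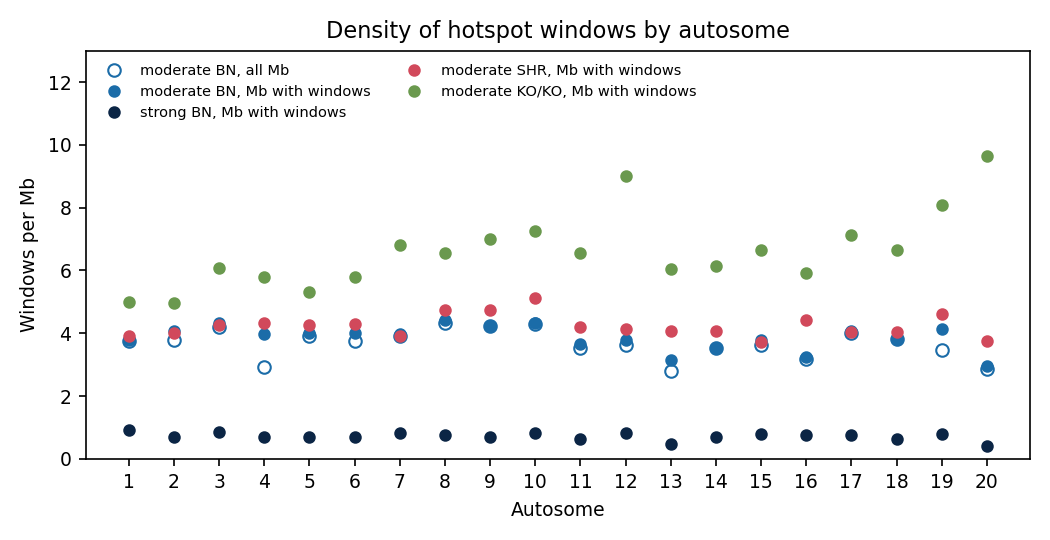
Windows per Mb (vertical axis) on each autosome for 4 sets of hotspots. Filled circles count only Mb that hold windows of the table, and open circles count all Mb for moderate BN hotspots. Chromosome 4 rises from 2.94 to 3.99 between open and filled circles, and on chromosome 20 the moderate KO/KO windows are highest and the moderate BN windows lowest.

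Each autosome was divided into 10 segments of equal length. Moderate BN hotspots were fewest in the first segment, which held 7.14% of them (6.65 to 7.65%), and most numerous in the eighth, with 12.6% (11.95 to 13.2%). The last segment held 11% (10.4 to 11.6%), against 13.5% (13.01 to 14.1%) for moderate default sites and 12.5% (12.3 to 12.8%) for all autosomal windows. The default sites and the whole table thus rose further toward the end of the chromosomes. Moderate SHR hotspots had 10.8% (10.2 to 11.4%) in the last segment and 8.27% (7.77 to 8.80%) in the first. Within 10 Mb of either end lay 13.03% of moderate BN hotspots (12.4 to 13.7%), compared with 15.6% of all autosomal windows and 15.4% of moderate default sites (14.9 to 16.0%). These stretches are 14.6% of the length. The ends differed, each being 7.28% of the length. The first 10 Mb held 5.27% of moderate BN hotspots (4.85 to 5.72%) and the last 10 Mb 7.77% (7.26 to 8.30%). All autosomal windows had 6.42% and 9.21% there. Median BN strength stayed between 80 and 83 in all segments. Median WKY strength was 19 to 23, with the highest value in the sixth segment and the lowest in the last.

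**Figure D5:**
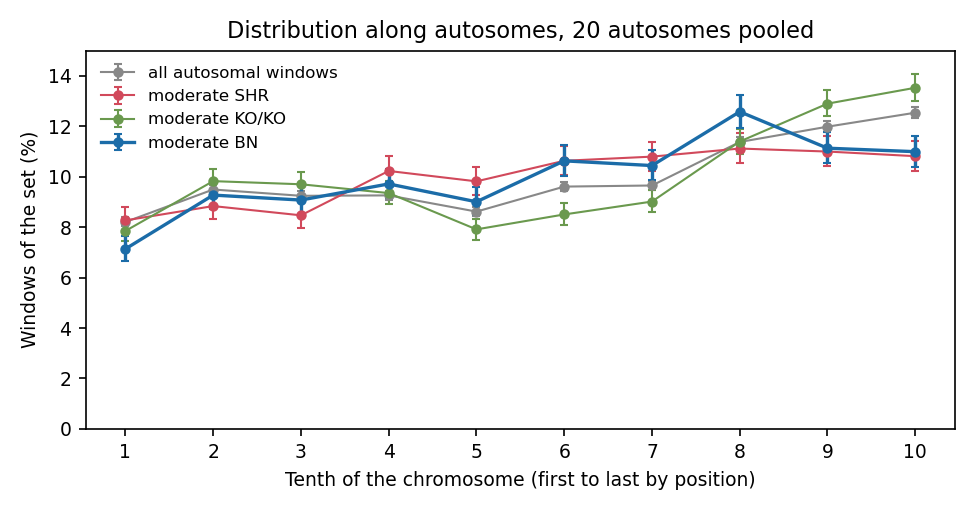
Share of the windows of each set (%) in 10 successive segments of equal length along the chromosome, with the 20 autosomes pooled. Error bars are Wilson 95% intervals. Moderate BN windows rise from 7.14% in the first segment to 12.6% in the eighth and end at 11%, below the 13.5% of moderate KO/KO windows.

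In 266 bins of 10 Mb the number of moderate BN hotspots ran from 0 to 77, with a median of 37.5 and a variance 5.64 times the mean. Of the 9 bins without any, 8 held no window of the table at all and 6 were on chromosome 4. In the 254 bins with at least 100 windows of any kind the numbers were 5 to 77 and the variance was 4.02 times the mean, against 2.95 for moderate SHR and 11.6 for moderate default sites. This ratio grows with the number of windows per bin, which averaged 38.9, 41.3 and 61.0. The spread beyond counting error was taken as a percentage of the mean over all 266 bins, including the 8 without any window. It was 35.3% for moderate BN, close to 35.6% for all autosomal windows and 35.7% for weak BN hotspots. Moderate SHR had 30.7%, moderate default sites 47.6% and strong BN hotspots 49.4%. The richest bin was on chromosome 4 from 180 to 190 Mb, with 77 moderate BN, 51 moderate SHR and 66 moderate default windows. The poorest of the 254 was the first 10 Mb of chromosome 7, with 5, 13 and 29. Across these bins the Spearman correlation with the number of moderate BN hotspots was 0.619 for strong BN, 0.587 for moderate SHR and 0.529 for moderate default sites, over stretches of the same assembly. With the number of all autosomal windows per bin it was 0.736. Counts of the sets thus varied together between regions. The part that unequal numbers of windows per bin have in this was not tested.

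At the scale of 1 Mb, 8.07% of the 2590 bins that hold windows had no moderate BN hotspot, and 78 bins had 10 or more. The fullest, chosen after its values were seen, was chromosome 9 from 20 to 21 Mb, with 22 moderate BN hotspots among 65 windows, 54 of them called in BN. BN strengths of the 22 ran from 51 to 178 with a median of 67, and 10 of them overlapped another window. KO/wt strengths there had a median of 4 and a maximum of 38, and 3 of the 22 were above 20. Over all bins this share did not rise steadily with crowding. In crowded bins, with 10 or more, KO/wt exceeded 20 at 0.692% (0.318 to 1.502%) of the 867 moderate BN hotspots. These were 6 windows, and 3 of them lay in the bin on chromosome 9 just described. In sparse bins, with 1 to 3, KO/wt exceeded 20 at 0.910% (0.590 to 1.40%) of the 2199. The share was 0.119% (0.0510 to 0.279%) in bins with 4 to 6 and 0.344% (0.187 to 0.633%) in bins with 7 to 9. Median KO/wt strength was 3 (2 to 3) in the crowded bins and 4 (3 to 4) in the sparse ones, and median WKY strength was 20 (19 to 22) and 23 (22 to 24). The intervals meet in both libraries. Windows that overlap another were 15.6% of moderate BN hotspots in the crowded bins and 11.5% in the sparse ones, and the part of overlap in these medians was not tested. BN strength, whose range the rule set, had medians of 83 (79 to 86) and 78 (76 to 79).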

How the data were processed

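Of 13 samples, the 5 DMC1 libraries in the hotspot table were used, and its columns were matched to them by strain and genotype. H3K4me3 and input libraries were not analysed here. The authors aligned reads to rn5 with a modified BWA (the submitters' processing notes name version 0.7.12), identified single-stranded fragments and used those of type 1 that mapped uniquely for hotspot calls. The deposited table gives, per window of 3000 bp and library, a strength and whether a hotspot was called. The authors deposited strength as a whole-number score whose scale is not known. How strength was computed is not given in the sources used here. Coordinates are printed as deposited.

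Members and comparison sets were selected on autosomes, and distances were taken between window centres. The end of the last window stood for chromosome length, since a genome of this build was not used here, and for the same reason no sequence or gene annotation is shown. The members, sets and lists were chosen with earlier results of these data known. Named windows were the first 3 in genome order at the highest and at the lowest BN strength. Extremes of KO/wt strength and spacing, the shortest run of 5 and the fullest and emptiest bins of 10 Mb were named too. Others are examples chosen after their values were seen. Depth in reads is unknown. Results were computed with pandas 2.3.3, numpy 2.4.6 and scipy 1.17.1 and drawn with matplotlib 3.10.9 in Python 3.11.15. On 9002 simulated windows the code recovered 11 of 11 values that had been set. For 13 results, values were recomputed with other limits, without overlapping windows or with called windows only. Other bins, ends and lengths were tried for the result that uses each, and the remaining values have no alternative.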

Additional observations from a re-analysis of the deposited data

How the results depend on the processing

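With 1 library per condition no result rests on a test, depth is unknown, and 47 of 81 alternative values for 13 results stayed within the interval of the reported value, or within 1.5 times it for the number of windows. No paired analysis was possible because no strain or genotype has more than 1 library. Limits by calls, doubled limits and lengths or bins that hold windows were chosen after the data were seen. The variance of counts per 10 Mb has no interval, so that each other value of it counts as moved.

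With BN strengths of 100 or more, there were 3563 windows, 175.7 kb to the nearest other, 23.6 kb to the nearest KO/KO hotspot, 0% called in KO/wt, a ratio of 1.89 between chromosomes and a variance 3.28 times the mean. With limits 0.5 times as high, there were 6548 windows, 100% called in BN, 0% called in KO/wt, median strengths of 0 in wild-type SHR and 14.5 in WKY, 14.4% overlapping, 106.8 kb to the nearest other, 23.8 kb to a KO/KO hotspot and a variance of 4.68 times the mean. Windows called in BN had 0.00985% called in KO/wt and a variance of 5.63 times the mean. Windows that overlap no other had 100% called in BN, 88.4 kb to the nearest other, 27.7 kb to a KO/KO hotspot and a variance of 4.95 times the mean. Requiring no call in wild-type SHR, WKY or KO/KO in place of strength limits gave 0.142% called in KO/wt, a median of 23 in WKY, 18.1% overlapping, 66.4 kb to the nearest other and 6.31 times the mean. Doubled limits gave 99.1% called in BN, 0.119% in KO/wt, 15.5% overlapping, 68.3 kb and 5.99 times the mean. With 5 Mb in place of 10 Mb, 5.12% lay at the chromosome ends and the variance was 4.15 times the mean, and it was 4.02 times in bins with 100 or more windows. The median KO/wt strength was 3 under all 6 other selections.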
